A study of Mus musculus with 16 samples.

Results

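The natriuretic peptide genes Nppa and Nppb, the ankyrin repeat gene Ankrd1, the skeletal alpha-actin gene Acta1, the Xin repeat genes Xirp1 and Xirp2 and the desmin gene Des were examined for binding of 2 transcription factors in the mouse heart. The 7 genes are 7 of 21887 protein-coding genes on the analysed chromosomes. They were listed by name, with earlier results of these data known. A peak was assigned to a gene when it overlapped the gene body or the 5 kb on either side, in mm10 coordinates. Of 33378 peaks in 8 lists, 23 lay at these genes. The lists come from ChIP-seq, in which an antibody pulls down a protein with the DNA it sits on and that DNA is sequenced, run on ventricles of mice at postnatal day 15. Control mice had received PBS and the other mice paromomycin plus neomycin (Paro/Neo), a pair of aminoglycoside antibiotics. Injections into the abdomen began at postnatal day 7 and went on for 7 days, with 150 mg/kg of Paro/Neo 2 times a day. Strain and sex of the mice are not stated in the labels. An antibody described as recognising Meis1/2 and an antibody against Hoxb13 were each used on 2 control and 2 Paro/Neo libraries, and a peak of the former can also be a site of Meis2. Control and Paro/Neo were compared to see whether binding at these genes differed with the treatment.

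The heart makes large amounts of several of these proteins before birth and makes them again when it is stretched or overloaded, which is why they are used as markers of the fetal gene programme. Nppa and Nppb lie next to each other and encode atrial and B-type natriuretic peptide, hormones that lower blood volume and pressure. Ankrd1 encodes CARP, which binds titin in the sarcomere and also enters the nucleus. Acta1 encodes the skeletal isoform of alpha-actin, which the fetal heart uses beside the cardiac isoform. Xirp1 and Xirp2 encode Xin proteins that bind actin at the intercalated disc, the junction between heart muscle cells. Des encodes desmin, the intermediate filament that ties the Z-discs of the sarcomeres together. Meis1, of the TALE homeodomain family, and Hoxb13, of the posterior Hox genes, bind DNA together and are known for their part in the exit of heart muscle cells from the cell cycle after birth. A ChIP-seq peak shows recovered DNA and does not measure expression of the gene beside it.

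Meis1 peaks numbered 3529 (control replicate 1), 3176 (control replicate 2), 1541 (Paro/Neo replicate 1) and 1025 (Paro/Neo replicate 2). Hoxb13 peaks in the same order numbered 5202, 1121, 821 and 16963, so that Paro/Neo replicate 2 stands apart from the other 3. Sequencing depth is unknown, and a library with more peaks reaches more genes. The ventricles of 2 hearts are described as biological duplicates of a sample, which leaves unclear whether hearts were pooled, so p-values measure the spread between these libraries, which may be technical. The antibodies belong to 2 sets of samples with different title styles, and antibody and set cannot be told apart. The file names of the Meis1 second replicates carry the letter of the opposite group. The labels were followed. The Meis1 group differences and the sites near Nppb, Ankrd1 and Des are also given with these lists exchanged, and the other values under the labels alone. As a check of the tissue, regions called in at least 2 libraries lay at 5 of 5 cardiomyocyte marker genes for each antibody. They lay at 0 of 4 erythroid markers for each, and at 0 of 5 fibroblast markers for Meis1 and 1 of 5 for Hoxb13. Among endothelial markers they lay at 2 of 5 for Meis1 and 4 of 5 for Hoxb13. Smooth muscle and pericyte markers (4 genes), macrophage markers (4) and skeletal muscle markers (5) held 0 for Meis1 and 1 each for Hoxb13. Over all protein-coding genes, 6.19% met the same rule for Meis1 and 22.9% for Hoxb13. In lists of 4 or 5 genes, a count of 0 for Meis1 or 1 for Hoxb13 is near those shares. Window lengths of the marker lists were not matched. The window of Ryr2 is long, since it holds regions at chr13:11546444-11554210 (Hoxb13) and chr13:12104333-12104624 (Meis1). The Hoxb13 regions at Myh6, Tnnt2 and Myl2 are merged regions of 40787, 21265 and 13610 bp.

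Hoxb13 peaks lay at all 7 genes in 1 library, Paro/Neo replicate 2, the longest list, and Meis1 peaks at Ankrd1 and Des alone, in a single library. Of the 7 genes, 4 held a Hoxb13 peak in control replicate 1, 2 in control replicate 2, 1 in Paro/Neo replicate 1 and 7 in Paro/Neo replicate 2. The same rule was met by 24.2%, 5.79%, 4.2% and 46.5% of all protein-coding genes in those libraries. For Meis1, 2 of the 7 genes held a peak in control replicate 2 and 0 in the other 3 libraries. The share of all genes with a Meis1 peak was 8.59% and 8.21% in the controls, and 4.07% and 2.83% in the Paro/Neo libraries. The windows of the 7 genes had a median of 17.9 kb, against 27.2 kb over all protein-coding genes. They ranged from 11.4 kb to the 90.6 kb of Xirp2. Whether window length bears on these counts was not tested.

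**Figure D1:**
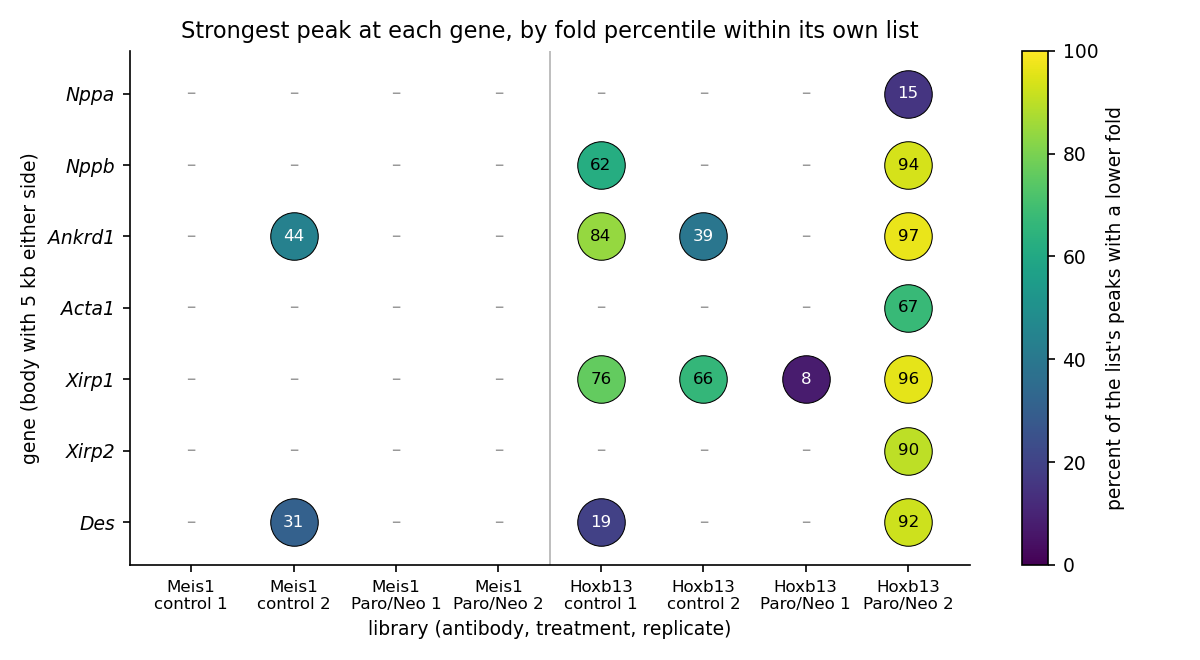
Each row is one of the 7 genes and each column a library. A circle means that the library's list holds a peak in the gene body or 5 kb either side, and its number and colour give the percent of the list's peaks with a lower fold than the strongest one there, with a dash for no peak. Xirp1 has a circle in all 4 Hoxb13 libraries, and Hoxb13 Paro/Neo replicate 2 has one for all 7 genes.

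A peak found in a single list may not recur, so peaks of an antibody's 4 libraries were merged into regions where they shared at least 1 bp, and regions called in at least 2 libraries were counted. Hoxb13 regions of this kind lay at 4 of the 7 genes, Nppb, Ankrd1, Xirp1 and Des, against 22.9% of all genes. For Meis1 the count was 0 of 7, against 6.19% of all genes, and for both antibodies together 0 of 7, against 2.7%. In a list of 7 genes a count of 0 is near both of these shares. Leaving out control replicate 1 lowered the Hoxb13 count to 2, Ankrd1 and Xirp1, where the share of all genes fell to 7.19%. Leaving out Paro/Neo replicate 2 gave the same 2 genes, with 6.56% of all genes. With lists of equal length (the 821 peaks of highest fold in each Hoxb13 list) it was again Ankrd1 and Xirp1, with 4.19% of all genes.

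**Figure D2:**
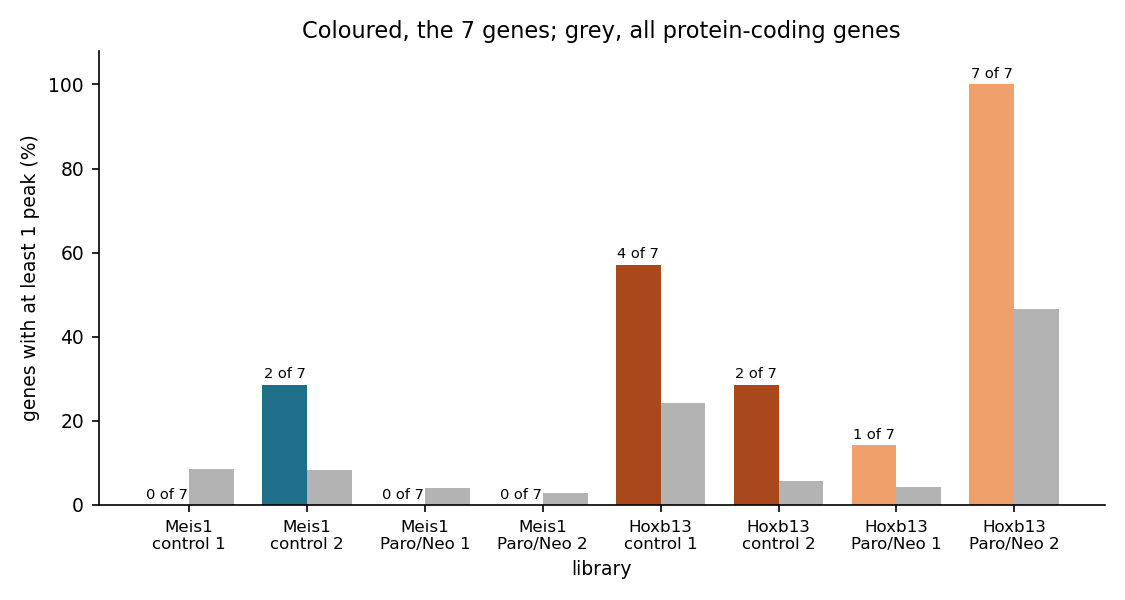
Bars give, for each library, the percent of the 7 genes and the percent of all 21887 protein-coding genes with at least 1 peak in the gene body or 5 kb either side, on an axis from 0. The 7 genes reach 57.1% in Hoxb13 control replicate 1 and 100% in Hoxb13 Paro/Neo replicate 2, where all genes reach 24.2% and 46.5%.

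At the 2 natriuretic peptide genes no Meis1 peak was called, and Hoxb13 peaks lay past the 3′ end of each gene. Nppb (chr4:147985786-147987205, plus strand) held a Hoxb13 peak of 1832 bp in control replicate 1 at chr4:147987667-147989498, starting 461 bp past the gene end. Its deposited fold enrichment of 3.41 ranked 1981 of 5202, above 61.9% of that list. In Paro/Neo replicate 2 a peak of 1357 bp at chr4:147987838-147989194 lay wholly within the former, with a fold of 4.09 at rank 1079 of 16963, above 93.6% of its list. Control replicate 2 and Paro/Neo replicate 1, the shorter lists, held no peak at Nppb, so each group had 1 library with the region and 1 without. The control peak has a −log10 q of 1.998 and falls just under a threshold of 2.

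Nppa (chr4:148000722-148002074, plus strand) held 1 peak, in Hoxb13 Paro/Neo replicate 2 at chr4:148004536-148004761. It was 226 bp wide, lay 2461 bp past the gene end and inside the neighbouring chloride transporter gene Clcn6, and ranked 14368 of 16963 with a fold of 2.79. Its −log10 q of 1.12 is near the limit of the list. The peaks past Nppb are the nearest other Hoxb13 peaks in control replicate 1 and Paro/Neo replicate 2, at 11.2 and 11.5 kb from Nppa. The nearest Meis1 peaks to the pair lay upstream of Nppb in both control libraries, at chr4:147969387-147969758 (fold above 76.1% of the list) and chr4:147969457-147969674 (above 12.9%), 16.0 and 16.1 kb from Nppb. In the Paro/Neo lists the nearest Meis1 peaks to Nppb were 1339 and 2270 kb away. With the second replicates exchanged, each group had 1 library with the site and 1 without. The Paro/Neo lists are shorter, and the difference at a single site was not tested.

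Ankrd1 (chr19:36111965-36119844, minus strand) carried a recurrent Hoxb13 region at its 3′ end and a Meis1 peak at its promoter in 1 library. The Hoxb13 peak of control replicate 1 (chr19:36110570-36112299, 1730 bp) reached 335 bp into the gene, with a fold of 3.83 at rank 829 of 5202. The peak of control replicate 2 (chr19:36110601-36111857, 1257 bp) ended 107 bp short of the gene, with a fold of 3.35 at rank 682 of 1121. In Paro/Neo replicate 2 a peak of 1815 bp (chr19:36110135-36111949) ended 15 bp short of the gene, with a fold of 4.47 at rank 574 of 16963. These folds exceeded those of 84.1%, 39.2% and 96.6% of their lists, and the peak of control replicate 2 lay wholly within the other two. Paro/Neo replicate 1 held no peak there. Merged, the region spans 2165 bp, chr19:36110135-36112299, so that both control libraries and 1 of 2 Paro/Neo libraries called it.

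The Meis1 peak at Ankrd1, in control replicate 2, lay 130 bp upstream of the gene start at chr19:36119975-36120226. It was 252 bp wide, with a fold of 4.60 at rank 1787 of 3176. A stronger Meis1 site lay outside the window, 47.4 to 47.5 kb upstream of Ankrd1, in all 4 libraries and overlapping no gene of the table. It was called at chr19:36167293-36167849 in control replicate 1 with a fold of 9.55, rank 140 of 3529, and in control replicate 2 with a fold of 8.75, rank 196 of 3176. In Paro/Neo replicates 1 and 2 the folds were 7.38 at rank 166 of 1541 and 5.39 at rank 413 of 1025. These values exceeded 96.0% and 93.8% of the control lists and 89.2% and 59.7% of the Paro/Neo lists. With the second replicates exchanged, control would hold 96.0% and 59.7% and Paro/Neo 89.2% and 93.8%. Distance alone does not assign this site to Ankrd1, and folds of different lists are not on one scale.

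Acta1 (chr8:123891758-123894775, minus strand) held 1 peak in the 8 lists. It was called in Hoxb13 Paro/Neo replicate 2 at chr8:123890971-123891461, 296 bp past the gene end, with a width of 491 bp and a fold of 3.31 at rank 5534 of 16963. The other 3 Hoxb13 lists and all 4 Meis1 lists held none, and the nearest Meis1 peaks outside the window were 362 to 555 kb away.

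The recurrent Hoxb13 region at Xirp1 (chr9:120013755-120023598; strand not used here) was called in all 4 Hoxb13 libraries. Control replicate 1 held 1 peak of 3055 bp (chr9:120011006-120014060), which overlapped the lower end of the gene by 306 bp, with a fold of 3.64 at rank 1241 of 5202. Control replicate 2 held 2 narrower peaks within the same stretch. The peak at chr9:120011209-120011520 was 312 bp wide with a fold of 3.68 at rank 379 of 1121. The peak at chr9:120012922-120013461 was 540 bp wide with a fold of 3.25 at rank 761.

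In Paro/Neo replicate 1 the only peak at any of the 7 genes lay in this stretch. It covered 233 bp at chr9:120011022-120011254, 2500 bp below the gene, with a fold of 2.97 at rank 759 of 821. In Paro/Neo replicate 2 the peak covered the whole stretch, 3240 bp at chr9:120010888-120014127, with a fold of 4.36 at rank 684 of 16963 and a −log10 q of 9.33. The best peak of each library exceeded 76.1% and 66.2% of the control lists and 7.55% and 96.0% of the Paro/Neo lists, so the Paro/Neo libraries lie on either side of both controls. Part of the stretch belongs to the long non-coding RNA gene Gm33800, so a peak there can be assigned to either gene.

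Within the body of Xirp1, Paro/Neo replicate 2 held 3 more peaks. The first, chr9:120014928-120015117, was 190 bp wide with a fold of 3.09. The next, chr9:120017252-120019600, was 2349 bp wide with a fold of 3.04, and the last, chr9:120020466-120021986, was 1521 bp wide with a fold of 3.24. Their folds exceeded 49.6%, 43.5% and 62.7% of the list, and the other libraries held none of them. Peaks of this library covered 36.8% of the Xirp1 window, against 15.4% in control replicate 1, 4.29% in control replicate 2 and 1.17% in Paro/Neo replicate 1. No Meis1 peak lay in the window. The nearest was in Csrnp1, 31.9 to 32.0 kb below Xirp1, in all 4 Meis1 libraries, above 73.1% and 76.0% of the control lists and 81.9% and 41.5% of the Paro/Neo lists.

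Its paralog Xirp2 (chr2:67446000-67526620, plus strand) is the longest of the 7 genes and held 2 narrow Hoxb13 peaks, both past the gene end and both in Paro/Neo replicate 2. The peak at chr2:67528386-67528559 was 174 bp wide, at the smallest width of its list, with a fold of 2.97 at rank 10943 of 16963. The peak at chr2:67530108-67530382, 3487 bp past the end, was 275 bp wide with a fold of 3.87 at rank 1657, above 90.2% of the list. The gene body of 80.6 kb held no peak of either antibody in any library.

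Des (chr1:75360292-75368579, plus strand) was the second gene with a Meis1 peak, again in control replicate 2 alone. This peak lay 139 bp upstream of the gene start at chr1:75359288-75360152. At 865 bp it was wider than 98.0% of the Meis1 list, while its fold of 4.25 ranked 2204 of 3176. Hoxb13 control replicate 1 held a peak of 675 bp 434 bp past the gene end (chr1:75369014-75369688), in the long non-coding RNA gene Gm15179, with a fold of 2.99 at rank 4204 of 5202.

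Hoxb13 Paro/Neo replicate 2 held 3 peaks at Des. The first overlapped the gene start at chr1:75360190-75360668 with a fold of 2.77 at rank 14740 of 16963. The second lay within the gene at chr1:75361552-75363463, 1912 bp wide, with a fold of 4.01 at rank 1292. The third, chr1:75365912-75369732, ran from the gene past its end over 3821 bp and held the peak of control replicate 1 within it, with a fold of 3.62 at rank 2805. Together they covered 34.0% of the window, against 3.69% in control replicate 1 and 0% in control replicate 2 and Paro/Neo replicate 1. Outside the window, a Meis1 peak 24.7 kb downstream of Des, in the muscle kinase gene Speg, was called in both control libraries and Paro/Neo replicate 1, above 87.8%, 59.9% and 90.9% of the lists. In Paro/Neo replicate 2 the nearest Meis1 peak was 181 kb away. With the second replicates exchanged, 1 of 2 control and 2 of 2 Paro/Neo libraries would hold the Speg peak.

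**Figure D3:**
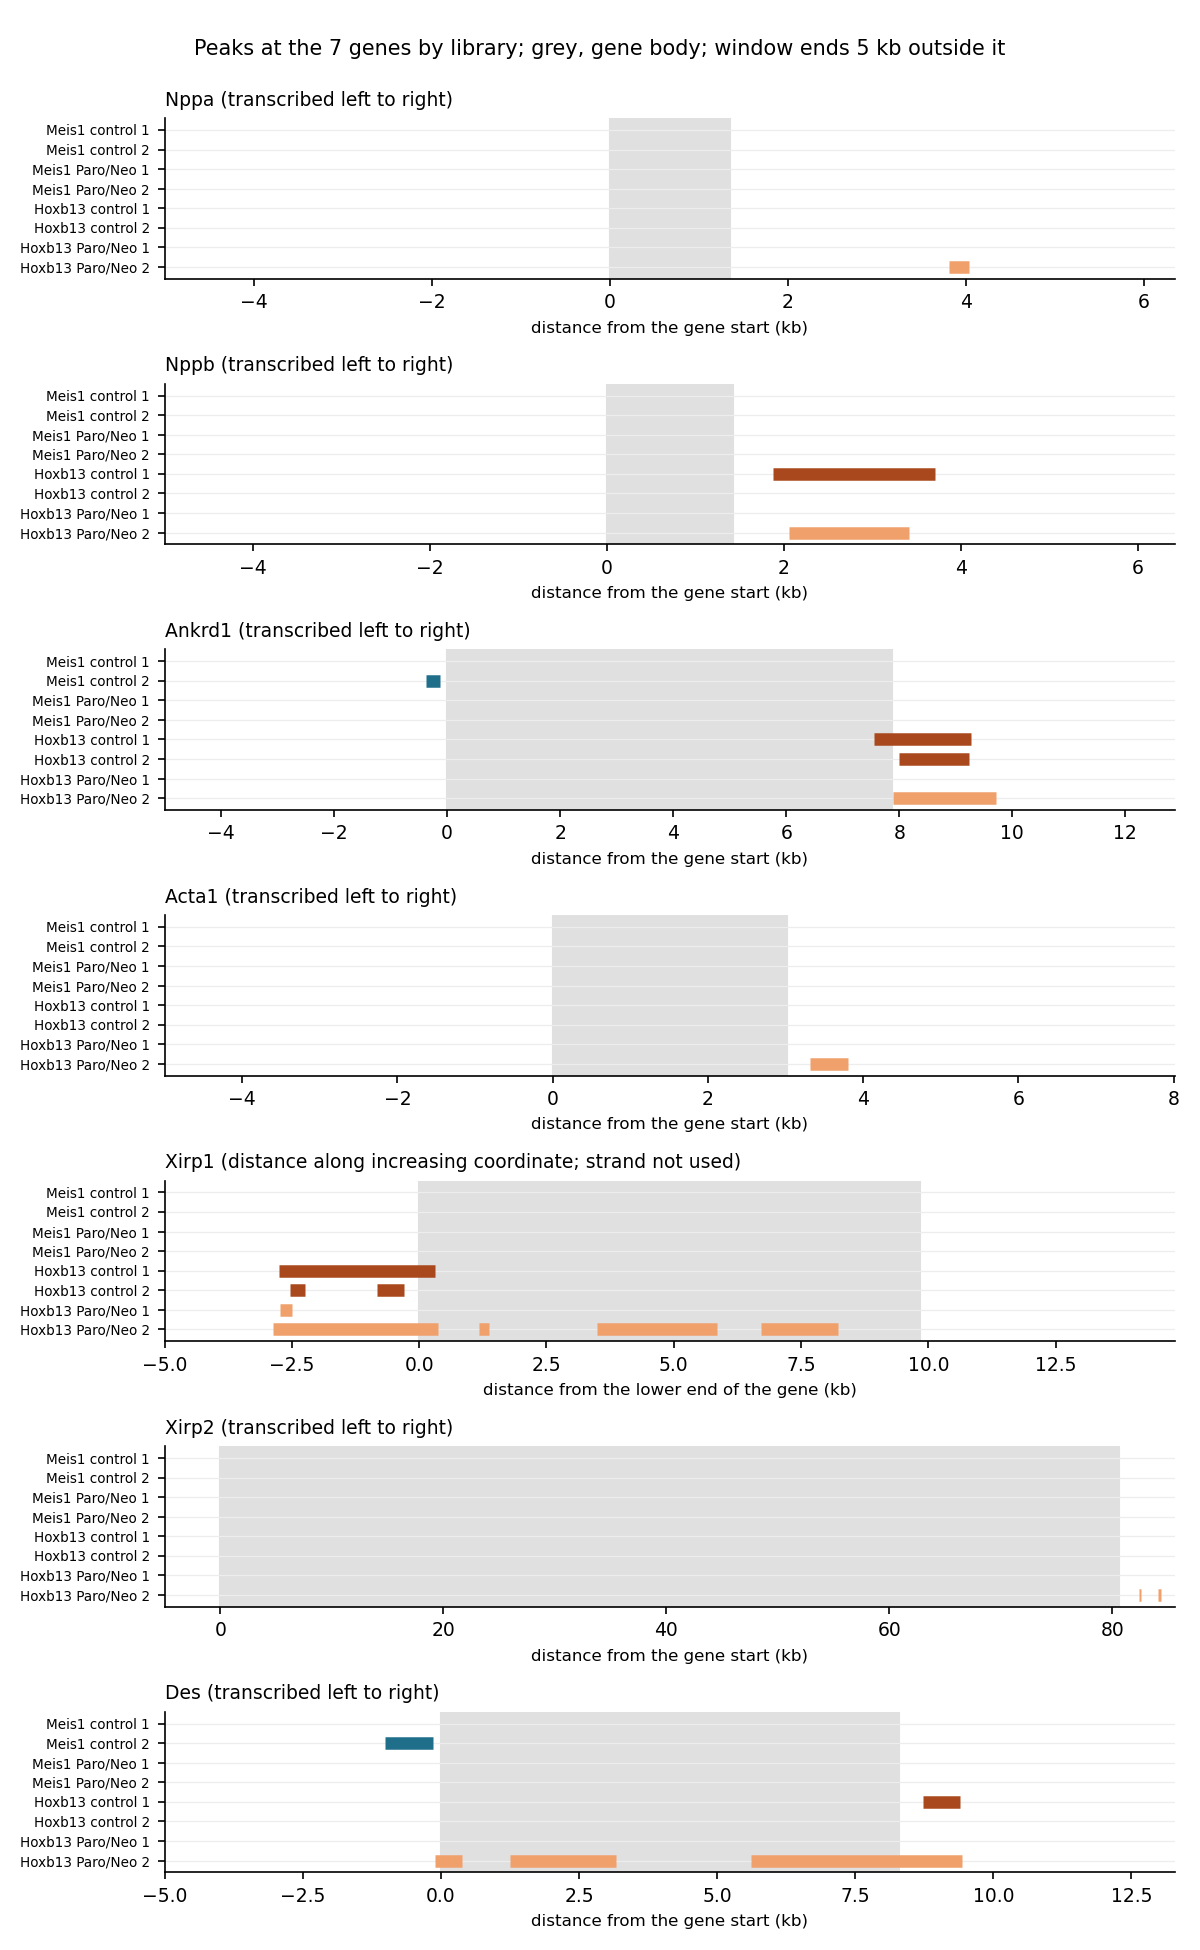
Each panel shows 1 gene with 5 kb either side. The horizontal axis is the distance in kb from the gene start in the direction of transcription (for Xirp1 from its lower end), grey marks the gene body, and each coloured bar is a peak in the library named at the left, to scale. The Hoxb13 peaks of Nppb, Ankrd1, Xirp1 and Des stack over the same stretch in 2, 3, 4 and 2 libraries.

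The promoters of Des and Ankrd1 are shown because a peak overlaps them, and that of Nppa because it holds the Meis word with no peak. The sequences run from 250 bases before to 50 bases after the gene start and come from RefSeq on GRCm38.p6, whose coordinates are those of mm10. They cover chr1:75360042-75360341 on the plus strand for Des, chr19:36119795-36120094 on the minus strand for Ankrd1 and chr4:148000472-148000771 on the plus strand for Nppa. The table holds 6 of the 7 genes, and Xirp1 has no entry. Capitals mark TGACAG, the core word bound by Meis proteins, or its reverse complement CTGTCA, and bases are counted from 1 at the 5′ end.
Des: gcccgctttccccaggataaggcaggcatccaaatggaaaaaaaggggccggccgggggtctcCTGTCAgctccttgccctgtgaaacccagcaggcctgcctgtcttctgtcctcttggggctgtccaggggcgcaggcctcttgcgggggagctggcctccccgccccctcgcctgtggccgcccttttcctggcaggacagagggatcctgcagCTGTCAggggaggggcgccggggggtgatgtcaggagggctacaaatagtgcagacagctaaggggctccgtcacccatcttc
Ankrd1: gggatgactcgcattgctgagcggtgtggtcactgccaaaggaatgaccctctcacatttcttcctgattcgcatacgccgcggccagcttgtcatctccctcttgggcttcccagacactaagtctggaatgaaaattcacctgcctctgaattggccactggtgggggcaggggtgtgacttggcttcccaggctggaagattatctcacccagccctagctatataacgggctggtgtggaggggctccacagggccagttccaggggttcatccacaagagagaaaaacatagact
Nppa: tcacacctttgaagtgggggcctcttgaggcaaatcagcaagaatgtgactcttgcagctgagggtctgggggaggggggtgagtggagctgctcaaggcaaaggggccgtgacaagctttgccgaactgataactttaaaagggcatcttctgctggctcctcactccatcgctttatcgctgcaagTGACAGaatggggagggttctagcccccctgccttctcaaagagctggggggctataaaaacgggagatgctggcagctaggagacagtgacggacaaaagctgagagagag

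In Des the Meis word stood 2 times on the minus strand, at bases 64 to 69 and 218 to 223. The Meis1 peak of control replicate 2 covered bases 1 to 111 of this promoter and the Hoxb13 peak of Paro/Neo replicate 2 bases 149 to 300, so each peak covered 1 of the matches and the peaks did not meet. In Ankrd1 the Meis1 peak covered bases 1 to 120 and the word was not in the window. Nppa held it at bases 189 to 194 on the plus strand, overlapping AAGTG, the short NKX word, at bases 186 to 190, and no peak of either antibody lay there. Nppb, Acta1 and Xirp2 had no match. Over all 32851 promoters of the table, searched on both strands, 19.2% held TGACAG. The Hoxb13 word CAATAAA was in none of the 6 promoters and in 4.60% of all.

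Words of other heart regulators were searched in the same way. The GATA word AGATAA stood in the promoters of Nppb (bases 167 to 172) and Ankrd1 (204 to 209) and in 11.2% of all promoters. The MCAT word CATTCC, bound by TEAD factors, stood in Nppb (146 to 151), in Ankrd1 (41 to 46 and 128 to 133) and in Acta1 (205 to 210), and in 14.7% of all. The Nppb sequence covers chr4:147985650-147985949 and is placed on a start inside the gene, whose first base is given as chr4:147985786. Its GATA and MCAT words therefore lie within the gene body used here. AAGTG stood in Nppa, Acta1 and Xirp2 and in 46.4% of all. AGGTGT, the TBX word, stood in Nppa (3 to 8) and in 13.7% of all. A CArG box, bound by serum response factor, stood in Acta1 (178 to 187) and in 1.63% of all, and a MEF2 word in Xirp2 (177 to 186) and in 3.19%. The MCAT word at bases 41 to 46 of the Ankrd1 promoter lay under its Meis1 peak, and that at bases 128 to 133 did not. A match is a description of the letters and not a bound site.

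With strand known for 6 of the genes, the position of peaks relative to the gene was counted, a count chosen after the peak positions had been seen. In Hoxb13 Paro/Neo replicate 2, peaks reached into the 5 kb past the gene end at 6 of 6 genes, where 18.2% of 17492 genes with a known strand did. Peaks in the 5 kb before the gene start were found at 1 of 6, Des, against 29.3% of all genes, and in the gene body at 1 of 6 against 39.9%. For Hoxb13 regions called in at least 2 libraries, 3 of 6 genes (Nppb, Ankrd1 and Des) had one past the end, against 6.44% of all genes. None of the 6 had such a region before the start, against 15.1%, and 2 of 6 had one that met the gene body, against 19.1%. The 2 Meis1 peaks, at Ankrd1 and Des, both lay before the start, where 1.65% of all genes held a peak of that library. No test was made of these shares, since they were chosen on the same peaks. Paro/Neo replicate 2 is the list with the most peaks. In the other Hoxb13 lists, past-the-end peaks lay at 3 of 6 genes in control replicate 1, 1 in control replicate 2 and 0 in Paro/Neo replicate 1. Of all genes with a known strand, 6.47%, 1.75% and 1.30% had one in those lists.

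**Figure D4:**
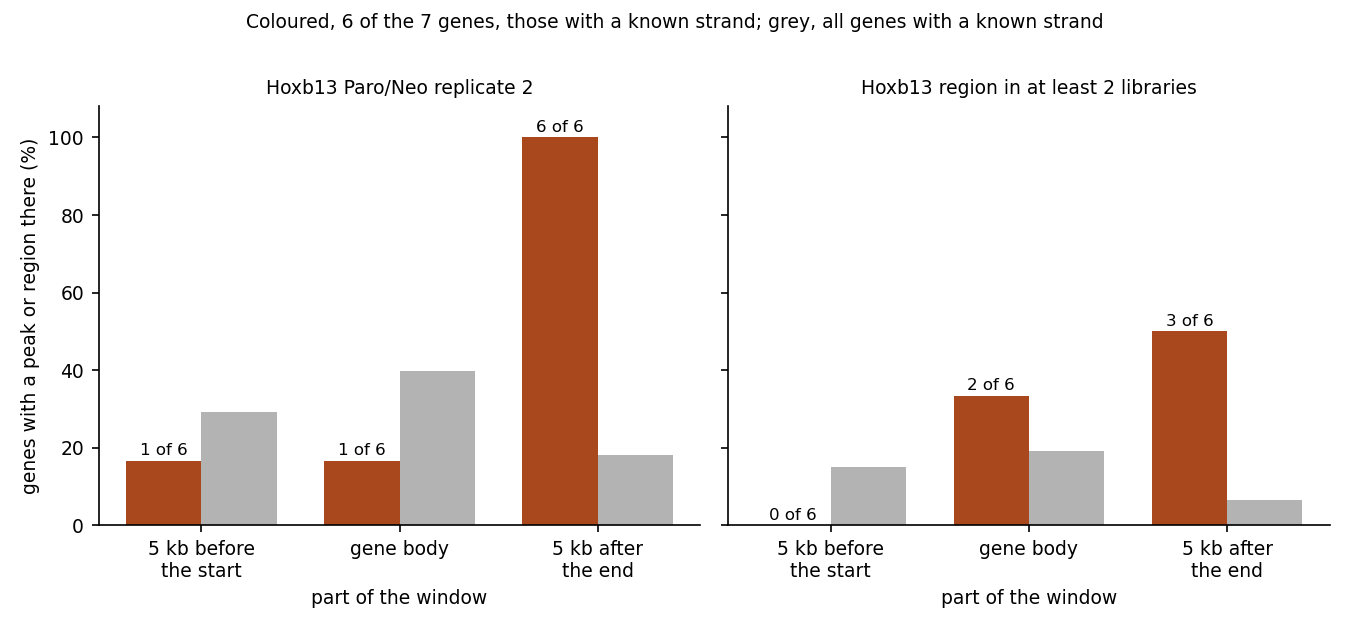
Bars give the percent of genes with a Hoxb13 peak or region in the 5 kb before the start, in the gene body and in the 5 kb after the end, for the 6 genes with a known strand and for 17492 protein-coding genes. After the end, all 6 genes have a peak in Paro/Neo replicate 2, against 18.2% of all genes.

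The Hoxb13 peaks at the 7 genes were of mixed strength and often wide. Of the 21 peaks, 12 had a fold at or above that of 50% of their list and 5 at or above that of 90%. All 5 of the latter came from Paro/Neo replicate 2, the longest list. The highest in any other Hoxb13 list, at Ankrd1 in control replicate 1, was above 84.1% of its list. Of the same 21 peaks, 10 were wider than 90% of their list, and these lay at Nppb, Ankrd1, Xirp1 and Des. Of all peaks in the window of any protein-coding gene, 9.61% to 11.0% were that wide in the 4 Hoxb13 lists. A wide peak meets a window more easily than a narrow one, and peaks of 1 gene are not independent, so no test was made. The peaks at Nppa, Acta1 and Xirp2 were narrower than the median of 495 bp of their list. The lists of the other Hoxb13 libraries had median widths of 348 to 412 bp, and those of Meis1 255 to 260 bp.

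**Figure D5:**
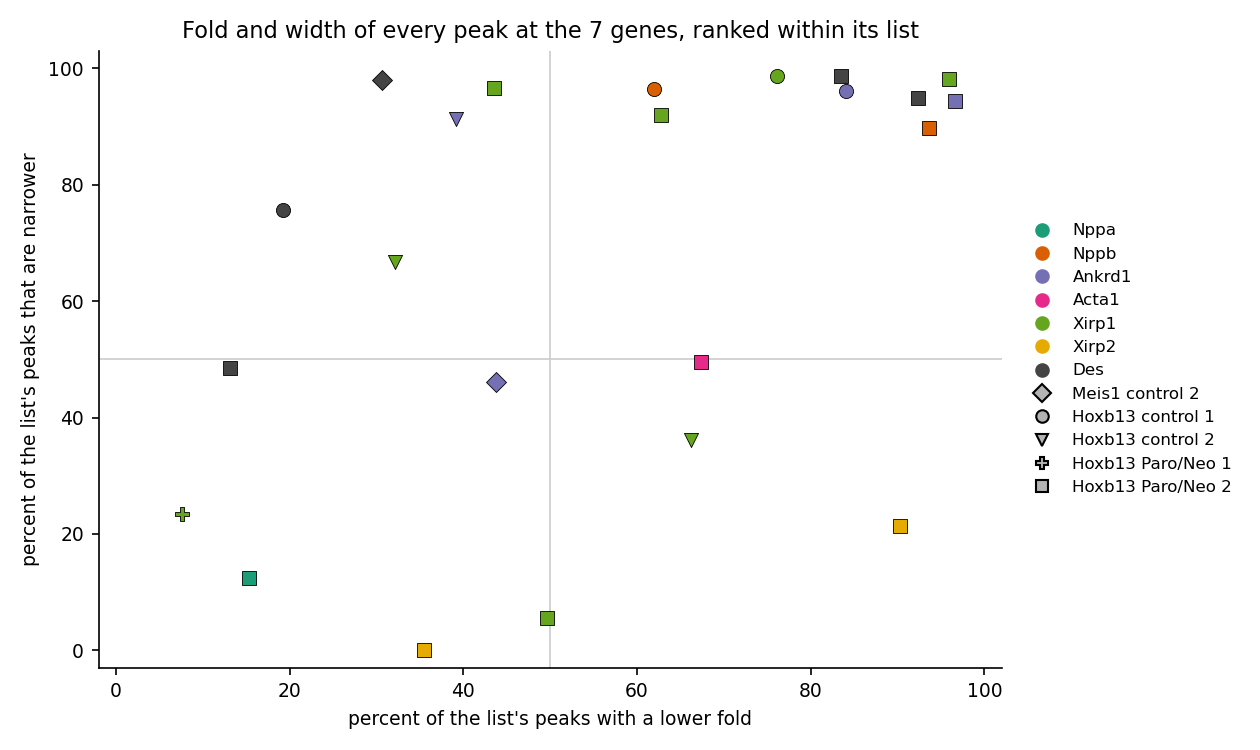
Each point is 1 of the 23 peaks at the 7 genes. The horizontal axis is the percent of its own list with a lower fold and the vertical axis the percent with a smaller width, with colour for the gene and shape for the library. Every peak above 90% in width belongs to Nppb, Ankrd1, Xirp1 or Des, but Ankrd1, Xirp1 and Des also have peaks below 50%, as do Nppa, Acta1 and Xirp2.

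Between treatments, no difference larger than the spread between libraries was found at the 7 genes. Hoxb13 peaks lay at 4 and 2 genes in the control libraries, 3 ± 1.41 (SD, n = 2), and at 1 and 7 genes in the treated libraries, 4 ± 4.24 (SD, n = 2). The control values fall between the Paro/Neo values. The difference was 1 gene (exact two-sided permutation p = 1; with 2 libraries against 2 the smallest possible p is 0.333). Leaving out 1 library moved it in both directions. It was -2 genes when Paro/Neo replicate 2 was left out and 4 when Paro/Neo replicate 1 was. Dropping control replicate 1 gave 2 genes, and dropping control replicate 2 gave 0.

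Scaled to list length, the Hoxb13 peaks at the 7 genes numbered 0.769 and 2.68 per 1000 peaks in control and 1.22 and 0.766 in Paro/Neo, a difference of -0.730 per 1000 (exact two-sided permutation p = 0.667). The 95% Clopper-Pearson intervals, which cover counting error only, ran from 0.210 to 1.97 and from 0.552 to 7.80 in the controls. In Paro/Neo replicates 1 and 2 they ran from 0.0308 to 6.77 and from 0.408 to 1.31, so all 4 overlap. The difference was 0.223 per 1000 without control replicate 2 and -1.68 without control replicate 1, and 0 with lists of equal length.

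For Meis1 the controls held peaks at 0 and 2 genes and both Paro/Neo libraries at 0, a difference of -1 gene (exact two-sided permutation p = 1). Per 1000 peaks the controls had 0 and 0.630 and the Paro/Neo libraries 0 and 0, a difference of -0.315 (exact two-sided permutation p = 1). The upper Clopper-Pearson limits of the libraries at 0 were 1.04, 2.39 and 3.59 per 1000 peaks, so a rate like that of control replicate 2 was not excluded in any of them. Both Meis1 peaks come from control replicate 2, 1 of the lists whose file name and label disagree. With the second replicates exchanged, the differences were 1 gene and 0.315 per 1000, and without control replicate 2 both were 0.

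No single gene separated the groups. Nppb and Des had a Hoxb13 peak in 1 of 2 libraries of each group, Xirp1 in 2 of 2 of each, and Ankrd1 in 2 of 2 control and 1 of 2 Paro/Neo libraries. Nppa, Acta1 and Xirp2 had one in 0 of 2 control and 1 of 2 Paro/Neo libraries, that library being the longest list. In Hoxb13 lists cut to equal length, control replicate 1 held no peak at any of the 7 genes, control replicate 2 and Paro/Neo replicate 2 held peaks at Ankrd1 and Xirp1, and Paro/Neo replicate 1 at Xirp1.

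Other genes of the same programme were counted from 7 lists with 65 genes, none of them among the 7. These lists too were chosen with earlier results of these data known. Regions called in at least 2 libraries lay at 37 of 65 for Hoxb13 (56.9%) and at 18 of 65 for Meis1 (27.7%), against 22.9% and 6.19% of all genes. Their windows have a median of 38.7 kb and are longer than those of all genes, which gives them more room for peaks. Leaving out control replicate 1 gave a Hoxb13 count of 24, with 7.19% of all genes, and leaving out Paro/Neo replicate 2 gave 23, with 6.56%. The Meis1 count was 11, with 3.77% of all genes, when control replicate 2 was left out, and 12, with 3.84%, when control replicate 1 was. In what follows, the number of libraries given with a gene is that with any peak in its window, which can differ from the number that called one region. A percentage in brackets is the share of the list below the gene's best peak, averaged over those libraries. The counts of each list stand against the same shares of all genes, 6.19% for Meis1 and 22.9% for Hoxb13.

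The natriuretic peptide system had Meis1 regions at 2 of 9 genes, Corin (4 libraries, 70.7%), the protease that cuts pro-ANP, and Prkg1 (3 libraries, 67.4%), the cGMP-dependent kinase. Its Hoxb13 regions lay at 3 of 9, Corin (2 libraries, 78.8%), the receptor gene Npr2 (2 libraries, 77.0%) and Prkg1 (2 libraries, 67.6%). The region at Npr2 was called in 3 libraries and reaches out of its window. Over all genes 6.19% held such a Meis1 region and 22.9% such a Hoxb13 region, and 3 of 9 for Hoxb13 is near the latter share. Corin held a Meis1 region in all 4 libraries, and Nppa and Nppb held no Meis1 peak in their windows. These windows differ in length. Those of Nppa and Nppb are 11.4 kb each. That of Corin is far longer and gives peaks more room, since it holds regions at chr5:72295763-72297434 (Hoxb13) and chr5:72435084-72435412 (Meis1).

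Of the titin-linked and LIM stretch proteins, the class nearest to Ankrd1, Meis1 regions lay at 3 of 9, Csrp3 (3 libraries, 39.2%), Ttn (3 libraries, 31.2%) and Ankrd23 (2 libraries, 40.8%). The recurrent Meis1 region at Ttn itself was called in 2 libraries. Hoxb13 regions lay at 5 of 9, with Fhl2 (98.3%), Ttn (98.2%) and Csrp3 (95.3%) called in 4 libraries each and Fhl1 (84.0%) in 3. The merged regions at Fhl2 and Ttn span 71151 and 96161 bp. Merging joins peaks in a chain, so libraries that call so long a region need not overlap one another in it. Among the other actin genes Meis1 regions lay at 0 of 5, and 0 of 5 held a Meis1 peak in any library. With 6.19% of all genes holding a Meis1 region, a count of 0 of 5 is near that share. Hoxb13 regions lay at 4 of 5, Actc1 (99.0%), the cardiac alpha-actin, Actg1 (90.7%) and Actb (65.0%) in 4 libraries each and Acta2 (68.7%) in 3. Acta1, the skeletal isoform, had its only peak in 1 library.

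Among partners of Xin proteins at the intercalated disc, Meis1 regions lay at 3 of 8, with Cdh2 (96.6%), which encodes N-cadherin, and Nrap (79.4%) in 4 libraries and Ablim1 (57.1%) in 2. Hoxb13 regions lay at 5 of 8, with Enah (98.6%) and Ablim1 (76.2%) in 4 libraries, Ctnnb1 (49.5%), the beta-catenin gene, in 3 and the vinculin gene Vcl (71.3%) in 2. Desmin partners and intermediate filament genes had Meis1 regions at 0 of 9 and Hoxb13 regions at 6 of 9, against 6.19% and 22.9% of all genes. A Meis1 count of 0 of 9 is near the share of all genes. The Hoxb13 regions included those at Vim (4 libraries, 87.7%), Myom1 (3 libraries, 58.9%), the chaperone gene Cryab (2 libraries, 88.0%) and Plec (2 libraries, 84.0%), the plectin gene.

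Regulators of the fetal cardiac programme had Meis1 regions at 5 of 15, with Myocd (83.8%), the myocardin gene, Mrtfa (57.4%) and Mef2a (50.4%) with peaks in 4 libraries and Gata4 (27.1%) in 3, of which 2 shared a region. Hoxb13 regions lay at 10 of 15, among them Hand2 (83.0%) and Camta2 (57.7%) in 4 libraries and Tead1 (77.0%) and Myocd (75.7%) in 3. Other fetal and hypertrophic genes had Meis1 regions at 5 of 10, among them Hcn4 (86.3%), a pacemaker channel, and Ctgf (80.1%) in 4 libraries and Rcan1 (72.9%) in 3, while Myh6 and Myh7 shared a region called in 2 (52.5%). Hoxb13 regions lay at 4 of 10, the calcium pump gene Atp2a2 (98.2%) and the myosin genes Myh6 (97.8%) and Myh7 (96.5%) in 4 libraries and Ctgf (38.1%) in 2. Myh6 and Myh7 are neighbours and share 1 Hoxb13 region as well. It is a long merged region of 40787 bp, and that at Atp2a2 spans 54022 bp.

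Genes with a like pattern of calls were looked up for the 3 members called in at least 3 of 8 libraries. Likeness was the number of libraries with the same state and then the mean absolute difference in the percent of the list below the best peak. For Ankrd1, 20 of 21887 genes (0.0914%) shared the state in all 8 libraries, and the nearest were Hk1, with a mean difference of 4.37 percentage points, and Kif1b, with 4.61. For Xirp1, 432 genes (1.97%) shared the state, and the nearest, Cebpd and Spidr, are neighbours with equal values of 2.11. For Des, 132 genes (0.603%) shared it, with Fkbp1a at 3.62 and Mroh1 at 3.99. The state of Nppa, Acta1 and Xirp2, a peak in Hoxb13 Paro/Neo replicate 2 alone, was that of 4100 genes (18.7%), and the state of Nppb that of 2903 (13.3%).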

How the data were processed

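Peak lists of 8 immunoprecipitated libraries were used, and 8 input samples were not analysed here. Tools named for the reads, on build mm10, are Bowtie2, MACS2, HOMER, FastQC 0.11.5 and Picard 1.127, per the submitters' processing notes; peak calling options are not given. The authors deposited 1 list per library, with a fold enrichment (a ratio to local background) and −log10 p and −log10 q values for each peak. These are the authors' values and were ranked only within a list, since depth and scaling are unknown.

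Chromosomes 1 to 19, X and Y were analysed. RefSeq gene positions on GRCm38.p6 carry no exons, so exon and intron were not assigned, and strand came from the promoter table. A peak belonged to a gene when it shared at least 1 bp with the body or 5 kb either side. Groups were compared by exact permutation over the 6 orders of 4 libraries. Overlap code was tested on simulated data. All 7 members were described with every peak. Up to 4 genes a list and antibody were named, ordered by libraries calling and then by mean percent of the list below the best peak. Alternatives changed the window, the q threshold, the overlap, list lengths, the Meis1 labels and the libraries. The members and lists were chosen with earlier results of these data known. Python 3.11.15, pandas 2.3.3 and SciPy 1.17.1 were used.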

Additional observations from a re-analysis of the deposited data

How the results depend on the processing

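Depth is unknown, so no detection limit can be given for a missing peak, and 2 libraries a group cannot reach a p below 0.333, which says nothing about stability. Counting gene bodies alone gave a difference (Paro/Neo minus control) of 0 members for Meis1 and 0 for Hoxb13, and of 0 and 0.0141 per 1000 peaks. With equal list lengths the Meis1 differences were 0 members and 0 per 1000 and the Hoxb13 differences 0.5 members and 0 per 1000. A −log10 q of at least 2 gave 1.5 members and -0.525 per 1000 for Hoxb13. Exchanging the Meis1 second replicates gave 1 member and 0.315 per 1000. Leaving out each library in turn gave -2 to 0 members and -0.630 to 0 per 1000 for Meis1, and -2 to 4 members and -1.68 to 0.223 per 1000 for Hoxb13.

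Members with a recurrent Hoxb13 region numbered 2 with a −log10 q of at least 2 (15.4% of all genes) and 2 with equal list lengths, and 2 to 4 without single libraries. Other programme genes ranged from 11 to 18 for Meis1 and from 23 to 37 for Hoxb13 without single libraries. The 6 members with a peak past the gene end were 5 with a flank of 2 kb, 6 with 10 kb and 5 with a −log10 q of at least 2, where 12.2%, 23.3% and 11.9% of genes had one; these were chosen after seeing the data. Of the 9 pairs of gene and antibody with a peak, the number of libraries calling was identical in 9 with a window of 10 kb and in 9 when at least 50% of the peak had to lie inside. It was lower in 5 with the stricter q, and in all 9 with gene bodies alone and with equal list lengths. The cause was not tested. Replicate numbers were not shown to pair libraries: deviations correlated at -0.0285 for Meis1 and 0.0198 for Hoxb13. Permuting within replicate numbers changes only the p-value. The differences of -1 and 1 members and -0.315 and -0.730 per 1000 stay the same by construction, so this setting says nothing about their stability.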
